A study of Mus musculus with 5 samples.

Results

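Cells break glucose down to pyruvate by glycolysis, and pyruvate is then either reduced to lactate or taken into mitochondria, where the pyruvate dehydrogenase complex turns it into acetyl-CoA for the citrate cycle. Mammary luminal cells, the epithelial cells that line the ducts and alveoli and make milk, are known to draw on these routes for more than energy. Citrate that leaves the mitochondria feeds fatty acid synthesis, and the pentose phosphate pathway supplies NADPH for that synthesis and ribose for nucleotides.

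The genes described here were 47 of the 24319 genes of the expression table, taken as the rows whose gene name matched a fixed list of enzymes and transporters of central carbon metabolism. They fell into 5 steps, with 16 genes of glycolysis, 9 of pyruvate entry, 12 of the citrate cycle, 3 of citrate export and its cytosolic arm, and 7 of the pentose phosphate pathway. All 47 had a mean of at least 1 FPKM (mapped fragments scaled by transcript length and by the library total), the minimum for the genes that were tested, and 11481 of the 24319 genes reached it. The 47 genes and all gene lists used below were chosen with earlier results of these data known.

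Expression was measured by bulk RNA-seq in 5 libraries of mammary luminal cells from mice of a strain labelled Mixed. By genotype label, replicates 1, 2 and 3 are wild type and replicates 4 and 5 carry a *Brca1* knockout, whereas the paper describes its bulk luminal cells as BRCA1-deficient. In the study the deletion is made by *MMTV-Cre*, a recombinase driven by a promoter active in mammary epithelium, acting on *Brca1* fl/fl alleles, so cells in which Cre did not act keep the gene. The cells were sorted by flow cytometry as live CD24Hi CD29Lo cells. The methods name females of 3 to 4 months, virgin or pregnant, as donors of the glands, and deplete hematopoietic and endothelial cells ahead of sorting. The stage of the mouse behind each library is not given in the sources used here. Nothing states that the libraries came from separate animals, so every p-value below measures only the spread between these libraries, which may be technical.

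The level of *Brca1* did not separate the labels. It was at 1.30, 1.32 and 0.234 FPKM in the wild type libraries (replicates 1, 2 and 3) and at 1.20 and 1.34 FPKM in the knockout libraries (replicates 4 and 5). FPKM over the whole gene does not resolve a deleted part, so this check neither upholds nor contradicts a label. The keratins and surface markers of luminal cells (*Krt8*, *Krt18*, *Krt19*, *Epcam*, *Cd24a*) summed to between 6150 and 10110 FPKM, with the highest sum in replicate 3. *Cd24a* of that list was lowest in replicate 3, at 411 FPKM against 465 to 554 FPKM. The adipocyte markers *Adipoq*, *Plin1*, *Lep* and *Cfd* summed to at most 0.198 FPKM. Estimated depth, from the spacing of low values, ran from 6670000 fragments in replicate 1 to 32600000 in replicate 3, and the smallest estimated number of fragments behind any value of the 47 genes was 48.8, for *Pdk3* in replicate 4.

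Wild type replicate 3 stood apart from the other 4 libraries. All 8 markers of mature luminal cells, the hormone-sensing class, were highest there, with a summed level of 645 FPKM against 16.5 to 43.1 FPKM elsewhere. Of 5 luminal progenitor markers, *Aldh1a3*, *Cd14* and *Itga2* were highest there, *Elf5* was lowest (102 against 244 to 338 FPKM) and *Kit* lay between. Of 5 tested markers of basal cells, 3 were lowest there, among them *Krt14* (3.65 against 27.7 to 103.7 FPKM), and 1, *Itgb1*, was highest. The 4 endothelial markers summed to 0.597 FPKM or less in replicates 1, 4 and 5, 6.5 in replicate 2 and 7.20 in replicate 3. The summed level of the 10 proliferation genes was lowest there, at 6.12 FPKM against 78.5 to 163 FPKM, and that of 7 milk protein genes was 28540 FPKM against 68700 to 91290 FPKM, although *Lalba* of that list was highest there (599 FPKM against 129.8 to 185 FPKM). Step medians, isozyme shares and label comparisons of the 47 genes are therefore given with and without this library. Most single genes are given by their value in every library or by replicate 3 against the range of the others. A few are given only within a range pooled over several genes. In bulk libraries, fewer cells of a type and less RNA per cell cannot be told apart.

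The promoter stretches of 4 of the genes are printed here because they belong to the members highest (*Pdk4*, *Pfkp*) and lowest (*Pdhb*, *Taldo1*) in replicate 3 among those with a single annotated start. Each runs 5′ to 3′ on the strand of the gene and is taken from RefSeq on GRCm38.p6, keeping only bases ahead of the start that no annotated exon covers. Capitals mark the core of the hypoxia response element (ACGTG or GCGTG), the GC box (GGGCGG) and the CCAAT box (CCAAT) on either strand.
Pdk4, chr6:5496310-5496528, minus strand: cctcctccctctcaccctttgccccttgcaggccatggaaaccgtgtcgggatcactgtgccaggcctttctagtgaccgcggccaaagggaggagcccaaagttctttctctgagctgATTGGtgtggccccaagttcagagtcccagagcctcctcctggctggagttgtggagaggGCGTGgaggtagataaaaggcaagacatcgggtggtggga
Pfkp, chr13:6648778-6649021, minus strand: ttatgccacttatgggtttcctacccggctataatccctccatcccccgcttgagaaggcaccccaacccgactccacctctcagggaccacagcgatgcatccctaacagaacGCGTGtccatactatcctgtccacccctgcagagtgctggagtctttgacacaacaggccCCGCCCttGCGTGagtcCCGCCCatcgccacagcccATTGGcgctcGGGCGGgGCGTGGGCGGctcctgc
Pdhb, chr14:8173026-8173242, minus strand: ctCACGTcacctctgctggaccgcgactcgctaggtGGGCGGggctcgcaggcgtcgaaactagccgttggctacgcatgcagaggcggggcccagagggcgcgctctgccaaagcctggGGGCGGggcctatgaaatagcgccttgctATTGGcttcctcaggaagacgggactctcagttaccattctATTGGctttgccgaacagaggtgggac
Taldo1, chr7:141391910-141392159, plus strand: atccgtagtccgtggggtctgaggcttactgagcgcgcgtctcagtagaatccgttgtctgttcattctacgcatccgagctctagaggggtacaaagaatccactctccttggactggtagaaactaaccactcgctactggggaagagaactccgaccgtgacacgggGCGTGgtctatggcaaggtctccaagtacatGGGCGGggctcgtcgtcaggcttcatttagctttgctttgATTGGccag
All 4 stretches held at least 1 hypoxia response core and at least 1 CCAAT box, and *Pfkp* held the most, with 3 hypoxia cores and 4 GC boxes. No GC box was found in the *Pdk4* stretch. Over the 67 windows of 300 bases (250 before to 50 after the start) of the 46 members matched by symbol, 73.1% held the hypoxia core, against 43.8% of all 32851 windows. The GC box was in 61.2% of the members' windows and 35.7% of all, the CCAAT box in 50.7% and 37.4%, and CACGTG, which contains the hypoxia core, in 11.9% and 7.15%. TATAAA was in 0 of the 67 windows and in 13.6% of all. Windows of 1 gene overlap, and the 32851 windows were not limited to tested genes or matched for base composition. These shares therefore describe the sequences only. *Idh3a* was not matched.

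Glycolysis was the highest step in every library. The median over its 16 genes was 6.49 ± 0.17 on the log2(FPKM + 1) scale (SD, n = 5), and 6.55 ± 0.12 without replicate 3 (n = 4). The pentose phosphate median was 5.996 ± 0.30 (6.12 ± 0.14 without replicate 3), the citrate cycle median 5.55 ± 0.37 (5.71 ± 0.13) and the pyruvate entry median 5.54 ± 0.33 (5.68 ± 0.12). Citrate export was lowest, at 4.58 ± 0.29 (4.70 ± 0.12). That step has 3 genes, and its median was the value of *Slc25a1* in every library, between *Mdh1* (mean 74.9 FPKM) and *Idh1* (6.82 FPKM). Within a library, glycolysis lay above the citrate cycle by 0.94 ± 0.28 (range 0.55 to 1.32, and 0.84 ± 0.21 without replicate 3) and above the pentose phosphate pathway by 0.50 ± 0.23 (0.44 ± 0.21 without replicate 3), in 5 of 5 libraries each. Pyruvate entry and the citrate cycle differed by -0.01 ± 0.10, with either the higher depending on the library. The plot of step medians shows replicate 3 at the bottom of all 5 steps, with the narrowest gap to the other libraries in glycolysis.

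**Figure D1:**
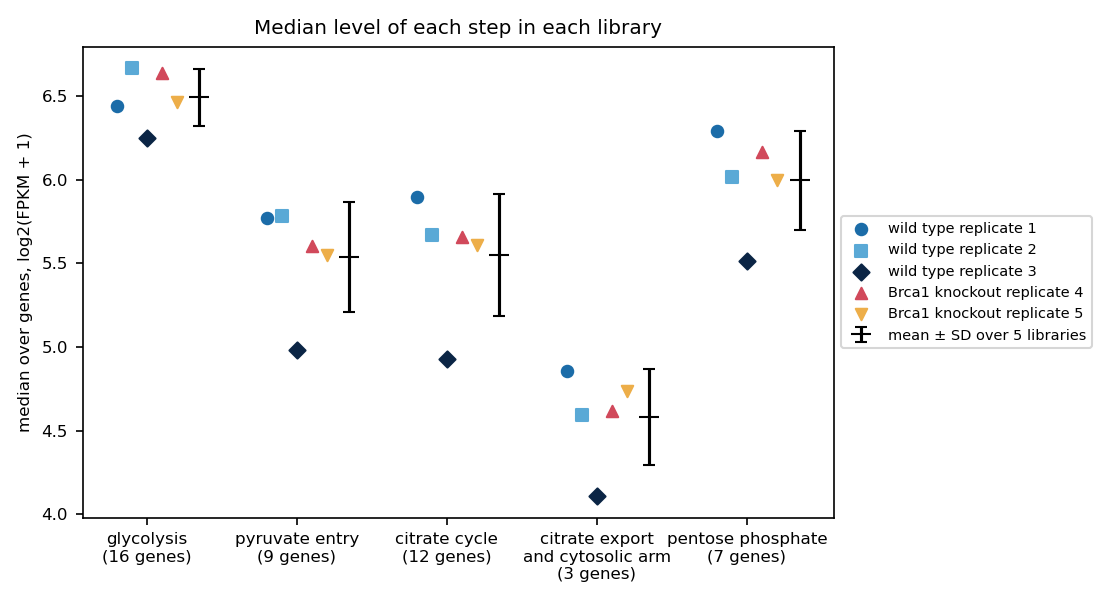
Median log2(FPKM + 1) over the genes of each step (vertical axis) for the 5 steps (horizontal axis), with a symbol per library and a bar for the mean ± SD over 5 libraries. Glycolysis, with a mean of 6.49, was the highest step and citrate export, at 4.58, the lowest, and replicate 3 was the lowest library in each step.

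Single genes ranged more widely than the steps, from 1.76 FPKM (*Idh1* in replicate 3) to 695 FPKM (*Gapdh* in replicate 2). By mean FPKM the order began with *Gapdh* (585 ± 95.0), *Ldha* (321 ± 129.7), *Taldo1* (236 ± 81.3), *Pkm* (229 ± 46.2) and *Aldoa* (222 ± 41.6; SD, n = 5). It ended with *Pdk1* (7.57 ± 3.37), *Idh1* (6.82 ± 3.13) and *Pdk3* (3.67 ± 0.549). Of the 46 pairs of neighbours in this order, 0 had ranges over libraries that did not overlap, so no single place in the order was resolved. The plot of levels shows how each step spans from abundant to scarce genes.

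**Figure D2:**
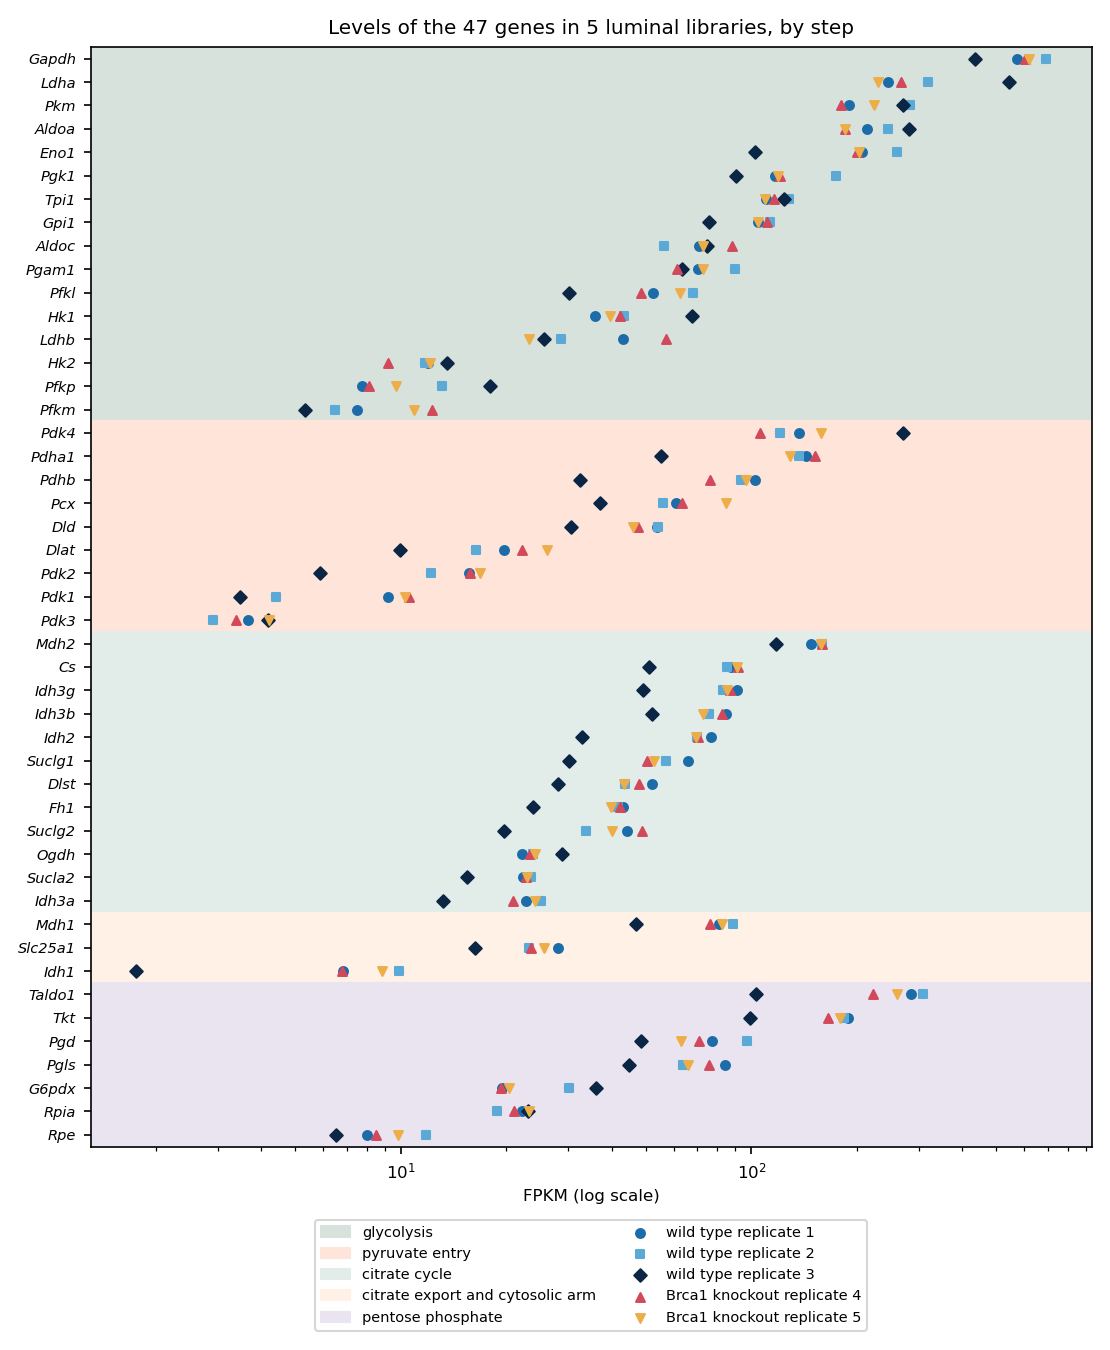
FPKM on a log axis (horizontal) of the 47 genes (rows), grouped by step and ordered by mean within a step, with a symbol for each of the 5 libraries. *Gapdh* led glycolysis between 435 and 695 FPKM, *Pdk4* led pyruvate entry and *Taldo1* the pentose phosphate pathway. The diamonds of replicate 3 lay at the left of the citrate cycle rows, except that of *Ogdh*.

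In glycolysis, the first reaction is made by the hexokinases, which trap glucose in the cell as its phosphate. *Hk1*, the form found in most tissues, was at 35.8, 43.2 and 67.9 FPKM in the wild type libraries and at 42.2 and 39.5 FPKM in the knockout libraries. *Hk2*, the form known for its response to insulin and hypoxia, was at 11.9, 11.7 and 13.5 FPKM and at 9.20 and 12.1 FPKM. *Hk1* exceeded *Hk2* in every library, both were highest in replicate 3, and the labels overlapped for both.

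Phosphofructokinase, which commits sugar to glycolysis, is built from 3 subunits. The liver-type *Pfkl* was at 52.4, 68.3 and 30.2 FPKM in the wild type and at 48.4 and 62.5 FPKM in the knockout libraries. The platelet-type *Pfkp* was at 7.75, 13.1 and 17.9 FPKM and at 8.10 and 9.67 FPKM. Replicate 3 was at opposite ends for these genes, with *Pfkl* lowest and *Pfkp* highest of the 5 libraries, while the labels overlapped for both. The muscle-type *Pfkm*, the scarcest glycolysis gene by mean, was at 7.50, 6.48 and 5.32 FPKM and at 12.3 and 10.9 FPKM. Both knockout libraries lay above all 3 wild type libraries for *Pfkm*. Of the exon bases of *Pfkp* (chr13:6579768-6648777, minus strand), 17.4% also lie in exons of *Pitrm1*, and the library kit does not mark strand, so reads there cannot be assigned.

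The aldolases split the phosphorylated sugar. *Aldoa*, the main form, was at 214, 245 and 282 FPKM in the wild type and at 184 and 186 FPKM in the knockout libraries, which lay below all 3 wild type values. *Aldoc*, the form best known from brain, was at 71.0, 56.5 and 74.6 FPKM and at 88.1 and 72.6 FPKM, with overlap between the labels. The annotation used for gene positions lists 2 genes named *Aldoa*, and how reads were divided between them is not given in the sources used here.

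*Gapdh*, which makes the first NADH of the pathway, was at 574, 695 and 435 FPKM in the wild type and at 603 and 619.6 FPKM in the knockout libraries. It was lowest in replicate 3 and highest in replicate 2. *Tpi1*, *Pgk1*, *Pgam1* and *Pkm*, which carry the triose stage down to pyruvate, and *Gpi1*, upstream of them, ranged from 61.3 to 283 FPKM. *Eno1*, enolase, measured 261 FPKM in replicate 2 and 102 FPKM in replicate 3, with 201 to 207 FPKM in the other 3 libraries. *Gpi1*, *Pfkl*, *Tpi1*, *Gapdh*, *Pgk1*, *Pgam1*, *Eno1* and *Pkm*, 8 of the 16 genes, all had their highest value in replicate 2, a count made after the values were seen, where 16.0% of all tested genes were highest in that library. In that library the 7 immune markers summed to 957 FPKM, against 29.6 to 473 FPKM in the other libraries, and the 7 fibroblast markers to 109.6 FPKM, against 3.19 to 87.4 FPKM. *Cd74* made up most of the immune sum, with 696 FPKM in replicate 2 and 465 of the 473 FPKM in replicate 5, while *Lyz2*, a myeloid marker, was at 213 FPKM in replicate 2, 28.7 FPKM in replicate 3 and 1.04 to 4.53 FPKM in the other 3 libraries. The part of these markers in the 8 genes was not tested. *Gapdh* and several other glycolysis genes have pseudogenes or retrogenes close to them in sequence, such as *Eno1b* (at most 0.000892 FPKM) and *Aldoart1* (at most 0.737 FPKM), and how shared reads were divided is not given in the sources used here.

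Lactate dehydrogenase interconverts pyruvate and lactate. *Ldha*, whose subunit favours lactate formation, was at 245, 319.8 and 545 FPKM in the wild type and at 267 and 229 FPKM in the knockout libraries. *Ldhb*, whose subunit favours the reverse, was at 43.0, 28.6 and 25.6 FPKM and at 57.2 and 23.2 FPKM. Replicate 3 held by far the highest *Ldha* value, and for both genes the labels overlapped. The ratio of *Ldha* to *Ldhb* was 21.3 in replicate 3 and 4.66 to 11.2 in the other libraries.

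At pyruvate entry, the pyruvate dehydrogenase complex is assembled from *Pdha1* and *Pdhb* (E1), *Dlat* (E2) and *Dld* (E3, which the complex shares with oxoglutarate dehydrogenase). *Pdha1* was at 143, 137 and 55.3 FPKM in the wild type and at 152 and 129 FPKM in the knockout libraries. *Pdhb* was at 102, 93.3 and 32.5 FPKM and at 76.0 and 96.6 FPKM. *Dlat* was at 19.7, 16.4 and 9.96 FPKM and at 22.1 and 26.1 FPKM. All 3 were lowest in replicate 3, and only for *Dlat* did the knockout libraries lie above every wild type library. *Dld* was also lowest in that library, with 30.6 FPKM where the others had 45.9 to 54.0 FPKM. Exons of *Map3k15* cover 21.2% of the exon bases of *Pdha1* (chrX:160122209-160138413, minus strand). Exons of other genes also cover 16.3% of those of *Rpe*, 12.9% of *Pkm* and 12.3% of *Gpi1*.

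The pyruvate dehydrogenase kinases switch the complex off by phosphorylating E1. *Pdk4*, the form known to be induced by fasting and fatty acids, was the most abundant gene of pyruvate entry, at 137, 121 and 272 FPKM in the wild type and at 106 and 158 FPKM in the knockout libraries. *Pdk1*, known as a hypoxia target, was at 9.21, 4.39 and 3.48 FPKM and at 10.5 and 10.2 FPKM. *Pdk2* was at 15.6, 12.2 and 5.86 FPKM and at 15.7 and 16.9 FPKM. *Pdk4* was highest in replicate 3, whereas *Pdk1* and *Pdk2* were lowest there and above every wild type value in both knockout libraries. *Pdk3*, the scarcest of the 47 genes by mean, was at 3.67, 2.91 and 4.18 FPKM and at 3.39 and 4.22 FPKM, with overlap. *Pcx*, pyruvate carboxylase, which refills the citrate cycle with oxaloacetate, was at 61.0, 56.0 and 37.1 FPKM and at 63.5 and 84.9 FPKM, so both knockout libraries were above the wild type ones.

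The citrate cycle genes were the most even of the steps outside replicate 3. Over the other 4 libraries, their SD on the log2 scale had a median of 0.060 (0.031 to 0.22), against 0.20 over all 11481 tested genes and 0.17 over the 2560 genes in the same range of mean FPKM, and 11 of the 12 lay below the latter. The corresponding medians were 0.22 for glycolysis, 0.21 for the pentose phosphate pathway, 0.19 for pyruvate entry and 0.12 for citrate export. *Mdh2*, mitochondrial malate dehydrogenase and the most abundant of the 12, was at 148, 159 and 117 FPKM in the wild type and at 159.5 and 158 FPKM in the knockout libraries. *Idh3a*, the catalytic subunit of NAD-dependent isocitrate dehydrogenase and the scarcest, was at 22.7, 25.1 and 13.2 FPKM and at 20.9 and 24.1 FPKM. Replicate 3 was the only library set off from the others for either gene.

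*Cs*, citrate synthase, measured 51.0 FPKM in replicate 3, where the other 4 libraries held 85.3 to 91.8 FPKM. Replicate 3 had *Fh1*, fumarase, at 23.8 against 39.7 to 43.0 FPKM, *Idh3g* at 49.0 against 83.2 to 90.9 FPKM, and *Idh3b* at 52.1 against 72.5 to 84.5 FPKM. *Dlst*, the E2 subunit of oxoglutarate dehydrogenase, was at 28.1 against 43.4 to 52.0 FPKM. *Ogdh*, the E1 subunit of the same complex, went the other way, at 28.8 FPKM in replicate 3 against 22.1 to 24.1 FPKM. It was singled out after its values were seen, as the only citrate cycle gene higher in replicate 3.

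Succinyl-CoA ligase pairs the shared subunit *Suclg1* with either *Suclg2*, for GTP, or *Sucla2*, for ATP. *Suclg2* was at 44.0, 33.7 and 19.7 FPKM in the wild type and at 48.9 and 40.1 FPKM in the knockout libraries. *Sucla2* was at 22.3, 23.5 and 15.5 FPKM and at 22.8 and 22.9 FPKM. Both were lowest in replicate 3, as was *Suclg1*, at 30.1 FPKM against 50.2 to 65.7 FPKM. *Idh2*, the mitochondrial NADP-dependent isocitrate dehydrogenase, was at 76.8, 70.2 and 32.8 FPKM and at 70.2 and 69.4 FPKM.

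Citrate leaves the mitochondria through *Slc25a1*, the citrate carrier, which was at 28.0, 23.1 and 16.2 FPKM in the wild type and at 23.6 and 25.7 FPKM in the knockout libraries. *Idh1*, the cytosolic isocitrate dehydrogenase that makes NADPH, was at 6.83, 9.90 and 1.76 FPKM and at 6.78 and 8.85 FPKM. *Mdh1*, cytosolic malate dehydrogenase, was at 80.9, 88.5 and 46.9 FPKM and at 76.0 and 82.3 FPKM. All 3 were lowest in replicate 3, and the labels overlapped for each.

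The pentose phosphate pathway has an oxidative arm that makes NADPH and a non-oxidative arm that rearranges sugars. *G6pdx*, glucose-6-phosphate dehydrogenase, which controls entry to the oxidative arm, was at 19.5, 30.2 and 36.0 FPKM in the wild type and at 19.3 and 20.3 FPKM in the knockout libraries. It was highest in replicate 3, unlike *Pgls* and *Pgd*, the next enzymes of that arm, which measured 44.7 and 48.5 FPKM there, where the rest held 62.8 to 97.5 FPKM. *Taldo1*, transaldolase, the most abundant gene of the step, was at 286, 309.7 and 103 FPKM and at 222 and 261 FPKM. *Rpe*, ribulose-phosphate epimerase, the scarcest, was at 8.02, 11.8 and 6.52 FPKM and at 8.50 and 9.80 FPKM. *Tkt*, transketolase, measured 99.2 FPKM in replicate 3 where the rest held 166 to 188 FPKM, while *Rpia*, ribose-phosphate isomerase, stayed between 18.8 and 23.2 FPKM in all 5 libraries. Genes of both arms (*Pgls* and *Pgd*, and *Taldo1*, *Tkt* and *Rpe*) thus had their lowest values in the library where *G6pdx* had its highest.

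Shares of summed FPKM within a library are the same under any single factor applied to that library. Values without replicate 3 (n = 4) are given in parentheses. *Pfkl* made up 71.5% ± 8.87 (75.2% ± 3.40) of the phosphofructokinase transcripts, *Pfkp* 16.7% ± 9.55 (12.5% ± 1.65) and *Pfkm* 11.9% ± 3.93 (12.4% ± 4.36), as mean ± SD with n = 5. In replicate 3 the share of *Pfkp* was 33.6%, against 11.5% to 14.9% in the other libraries. *Hk2* made up 20.9% ± 3.57 (21.9% ± 3.07) of the hexokinase pair, *Aldoc* 25.0% ± 5.47 (26.0% ± 5.74) of the aldolases and *Ldhb* 10.9% ± 5.32 (12.5% ± 4.55) of lactate dehydrogenase. *Pdk4* held 85.2% ± 6.34 (82.6% ± 3.32) of the kinase transcripts, with 95.3% in replicate 3 and 78.2% to 86.1% elsewhere. *Pdk2* held 8.13% ± 3.59 (9.65% ± 1.33), *Pdk1* 4.62% ± 2.51 (5.47% ± 1.90) and *Pdk3* 2.10% ± 0.384 (2.25% ± 0.176). *Suclg2* made up 62.6% ± 5.09 (64.3% ± 4.06) of the nucleotide-specific succinyl-CoA ligase subunits, and *Idh2* 90.9% ± 2.86 (89.8% ± 2.001) of the NADP-dependent isocitrate dehydrogenases.

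Between the labels, *Aldoc* made up 21.5% of aldolase transcripts in the wild type and 30.2% in the knockout libraries, and *Pfkm* 9.47% and 15.5% of phosphofructokinase transcripts. Neither these shares nor that of *Pdk3* (1.92% and 2.36%) overlapped between the labels, and each gave p = 0.2 and an adjusted p of 0.6 in a two-sided exact permutation test over 12 shares. That exact permutation test cannot go below p = 0.2 with 3 libraries against 2. The other 9 shares overlapped between the labels. Under quantile scaling, which is not a single factor per library, the *Pdk3* share overlapped between the labels and the *Pfkp* share no longer did. Without replicate 3, the knockout minus wild type difference went from 8.73 to 8.44 percentage points for *Aldoc*, from 6.004 to 6.24 for *Pfkm* and from 0.440 to 0.213 for *Pdk3*. It went from -8.27 to -1.48 for *Pfkp*, from -7.22 to -3.62 for *Pdk4* and from 4.22 to 1.86 for *Ldhb*. For *Pfkl* and *Idh2* its sign changed, from 2.26 to -4.77 and from -1.52 to 0.216.

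**Figure D3:**
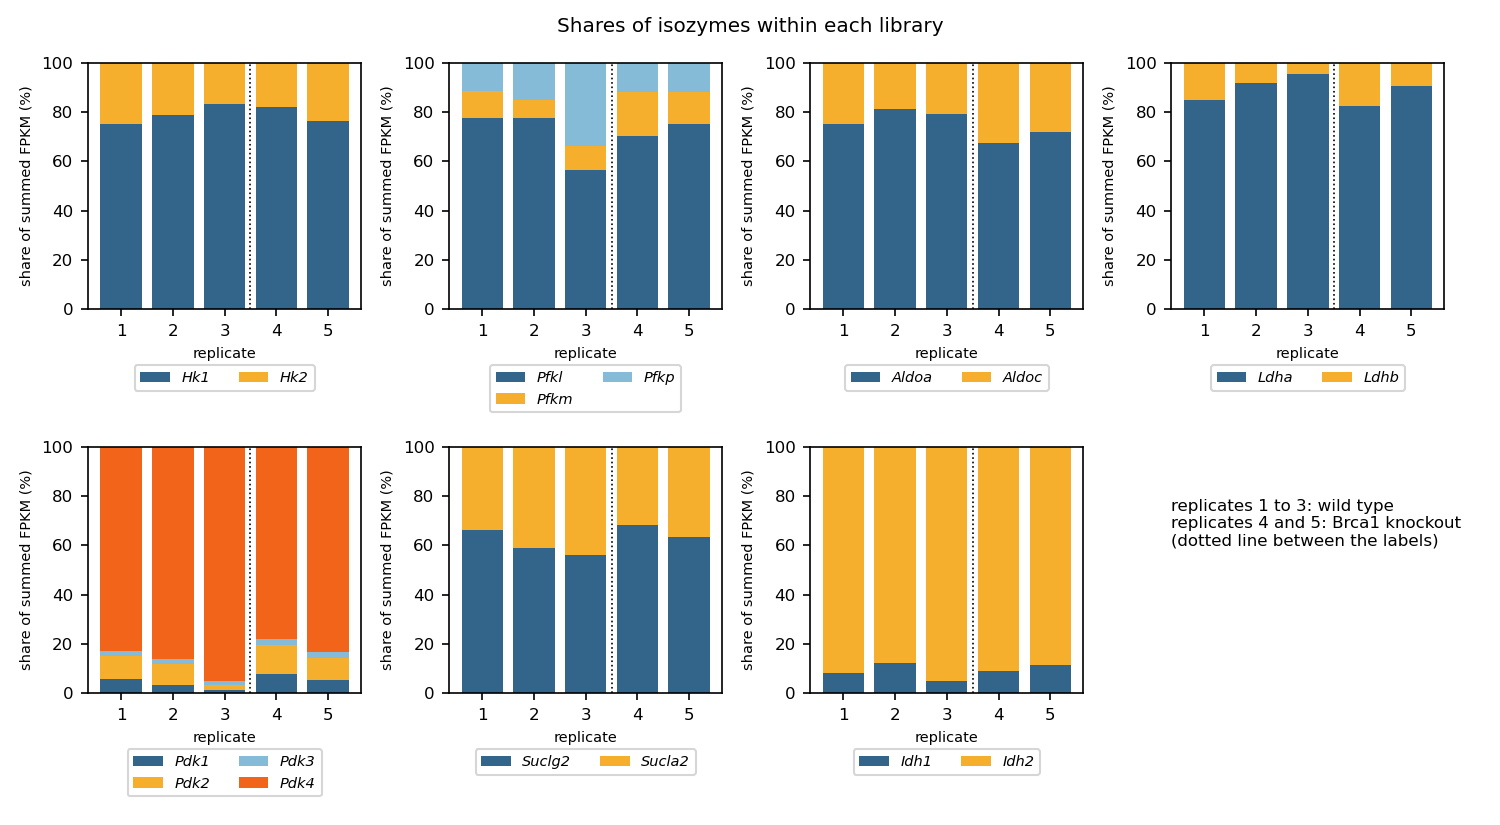
Share of summed FPKM (vertical axis, percent) held by each isozyme or subunit in each library (horizontal axis, replicates 1 to 5), for 7 enzyme groups. *Pfkp* took 33.6% of the phosphofructokinase bar in replicate 3, and *Pdk4* filled 78.2% to 95.3% of the kinase bar in all libraries.

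Replicate 3 set the main variation among the 47 genes. On the log2(FPKM + 1) scale, replicate 3 minus the mean of the other 4 libraries had a median of -0.64 over the 47 genes and -0.27 over all 11481 tested genes. By step the median was -0.99 for pyruvate entry, -0.79 for citrate export, -0.77 for the citrate cycle, -0.64 for the pentose phosphate pathway and -0.07 for glycolysis. A library stood apart by Dixon's criterion (a gap to the nearest library above 0.71 of the range) for 15 of the 47 genes, against 13.0% of all tested genes. In all 15 it was replicate 3 at the low end (7.39% of all tested genes), and in 0 it was replicate 3 at the high end (3.16%). Replicate 3 was the lowest library for 32 of the 47 genes, against 51.8% of all tested genes, and the highest for 8, against 18.5%. Differences below the all-gene median were found for 11 of 12 citrate cycle genes, 7 of 9 of pyruvate entry, 3 of 3 of citrate export, 5 of 7 of the pentose phosphate pathway and 7 of 16 of glycolysis, 33 of 47 in all, where 50.0% of all tested genes lie by construction. The median of mean FPKM was 60.5 for the 47 genes and 9.1 for all tested genes. The shares and medians over all tested genes were not matched for level.

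The 5 genes with the highest differences were *Pdk4* (1.07), *Ldha* (1.05), *Pfkp* (0.86), *Hk1* (0.75) and *G6pdx* (0.69). The 5 lowest were *Idh1* (-1.71), *Pdhb* (-1.47), *Taldo1* (-1.37), *Pdha1* (-1.33) and *Pdk2* (-1.22). The ratio of *Ldha* to *Pdha1* reached 9.85 in replicate 3, with 1.71 to 2.34 in the rest, and that of *Pdk4* to *Pdha1* was 4.91 against 0.697 to 1.23. Glycolysis was the most evenly divided step, with *Ldha*, *Pfkp*, *Hk1*, *Aldoa*, *Pkm*, *Hk2*, *Tpi1* and *Aldoc* at a positive difference and the remaining 8 genes at a negative one. Under median-of-ratios scaling, which moved the all-gene median from -0.27 to 0.01, the glycolysis median turned to 0.25, while those of pyruvate entry (-0.70), citrate export (-0.48), the citrate cycle (-0.47) and the pentose phosphate pathway (-0.32) stayed below 0.

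These differences ran alongside the markers given above, with 8 of 8 mature luminal genes at their highest and 10 of 10 proliferation genes at their lowest in replicate 3. Of the 5 luminal progenitor genes, 3 were at their highest and 1 at its lowest in replicate 3. There the fibroblast and immune markers summed to 87.4 and 251 FPKM, and both sums were higher in replicate 2 (109.6 and 957 FPKM). The part of cell composition in these differences was not tested. The comparison has 1 library on its side, so no test was made of it.

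**Figure D4:**
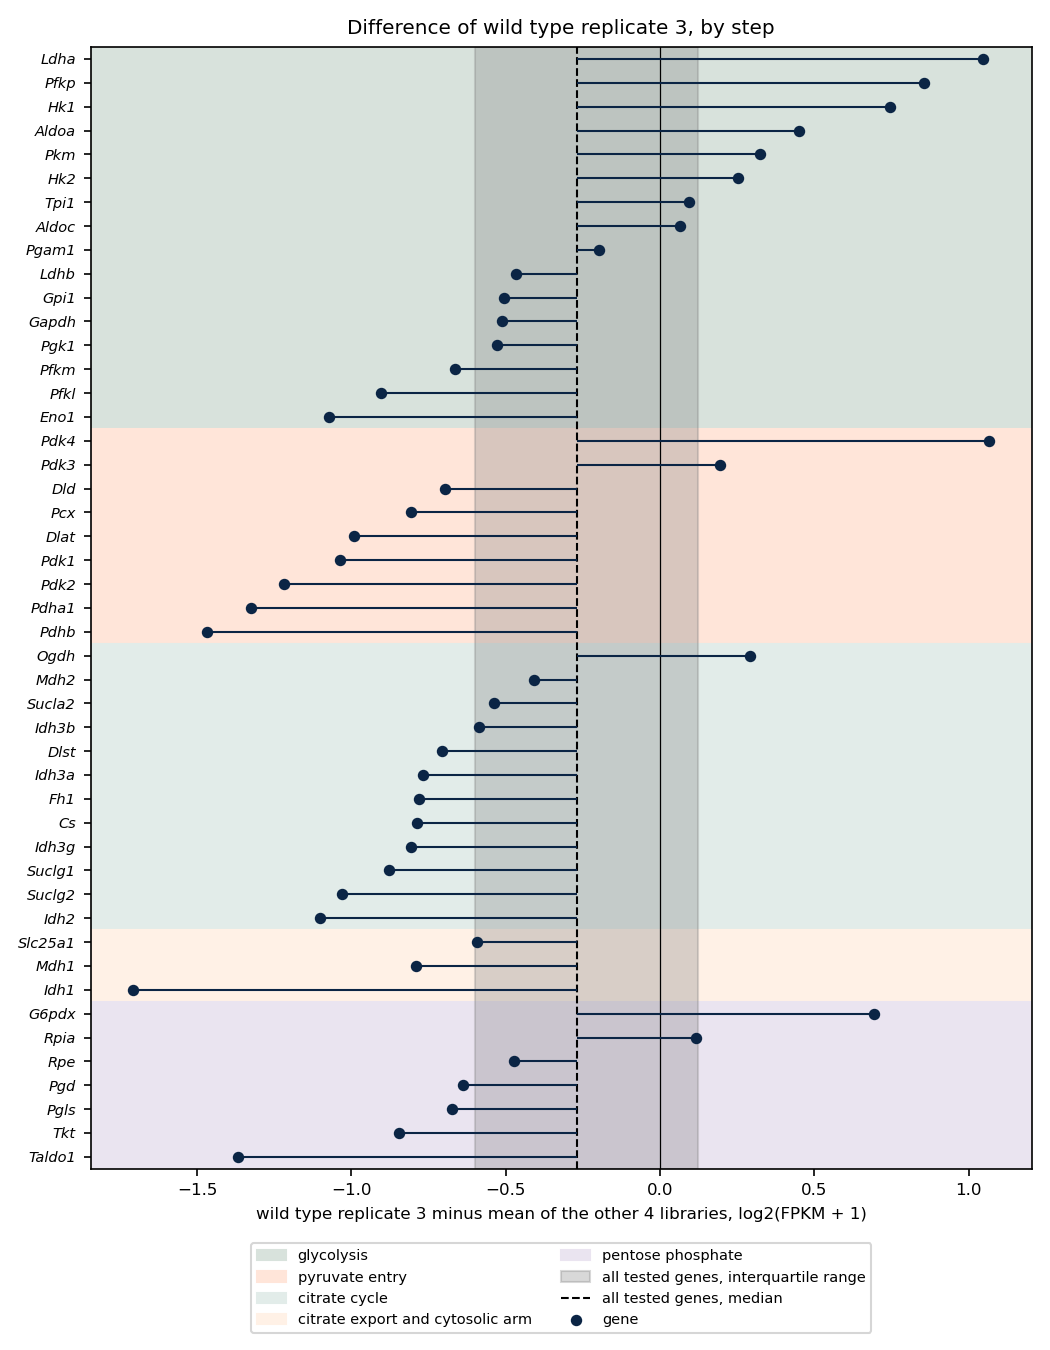
Difference of wild type replicate 3 from the mean of the other 4 libraries (horizontal axis, log2(FPKM + 1)) for each of the 47 genes (rows, by step), drawn as a line from the median of all tested genes at -0.27 (dashed), with the interquartile range of all tested genes as a grey band. Citrate cycle genes lay left of the dashed line except *Ogdh* at 0.29, and glycolysis genes lay on both sides, from -1.07 (*Eno1*) to 1.05 (*Ldha*).

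The labels raise the question of whether loss of *Brca1* goes with a change in these genes. With limma on log2(FPKM + 1) and Benjamini-Hochberg adjustment over all tested genes, 0 of the 47 genes and 0 of the 11481 tested genes (0.0% higher and 0.0% lower in the knockout) passed an adjusted p of 0.05. At an unadjusted p under 0.05, limma gave 372 genes (3.24%), among them 1 of the 47, *Pfkm*. The 5 largest differences were all higher in the knockout, in *Pdk1* (log2 fold change 0.86, SE 0.38), *Pfkm* (0.77, SE 0.21, unadjusted p = 0.0117 from limma), *Dlat* (0.66, SE 0.31), *Pdk2* (0.59, SE 0.40) and *Pcx* (0.54, SE 0.29), each with a limma adjusted p of 0.92. Without replicate 3 they were 0.62, 0.66, 0.40, 0.22 and 0.32, in the same order, and 0 genes were called.

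The knockout libraries lay above all wild type libraries for 6 of the 47 genes (*Pfkm*, *Dlat*, *Pdk1*, *Pdk2*, *Pcx* and *Cs*), and this held for 17.5% of all tested genes. They lay below for 1, *Aldoa*, against 5.77% of all tested genes. Neither share of the 47 genes was above that of all tested genes. Without replicate 3, 7 genes were higher in the knockout without overlap (23.9% of all genes tested then) and 7 lower (15.2%), and the latter included *Pgd*, *Tkt* and *Taldo1* of the pentose phosphate pathway.

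Direction by step depended on replicate 3. With all 5 libraries the median log2 fold change was 0.18 over the 47 genes (34 positive and 13 negative) and 0.11 over all tested genes. Without replicate 3 it was -0.05 (16 positive and 31 negative), against 0.03 over all genes. The citrate cycle median went from 0.19 to -0.03, citrate export from 0.18 to -0.08 and the pentose phosphate pathway from 0.09 to -0.11. By this median fold change, pyruvate entry remained above 0, at 0.44 and then 0.16, and glycolysis below it, at -0.06 and then -0.13. Taken as the difference between the labels' mean step medians instead, the values with all 5 libraries were 0.06 for pyruvate entry, 0.14 for the citrate cycle and the pentose phosphate pathway, 0.16 for citrate export and 0.10 for glycolysis, whose sign was thus the opposite of its median fold change. Without replicate 3, the step medians of pyruvate entry were 5.77 and 5.78 in the wild type and 5.60 and 5.55 in the knockout libraries. Those of the citrate cycle were 5.89 and 5.67 against 5.66 and 5.61, so both steps were then lower in the knockout libraries. The labels overlapped for the other steps. The direction of pyruvate entry without replicate 3 thus depended on the measure.

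Marker lists also differed between the labels. Of the 10 proliferation genes, 9 were higher in both knockout libraries than in any wild type library (17.5% of all tested genes were), with sums of 123 and 163 FPKM against 6.12 to 86.8 FPKM, but limma called 0 of them and 0 reached an unadjusted p under 0.05. Of the 8 mature luminal genes, 5 were lower in both knockout libraries (5.77% of all tested genes were), with sums of 16.5 and 21.6 FPKM. The wild type sums were 43.1 and 25.6 FPKM in replicates 1 and 2 and 645 FPKM in replicate 3. Their median log2 fold change of -1.67 was taken with replicate 3 included, and *Esr1*, *Prlr* and *Foxa1* overlapped between the labels. Limma called 0 of the 8 genes, with 1 at an unadjusted p under 0.05. The part of these lists in the values of the 47 genes was not tested.

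**Figure D5:**
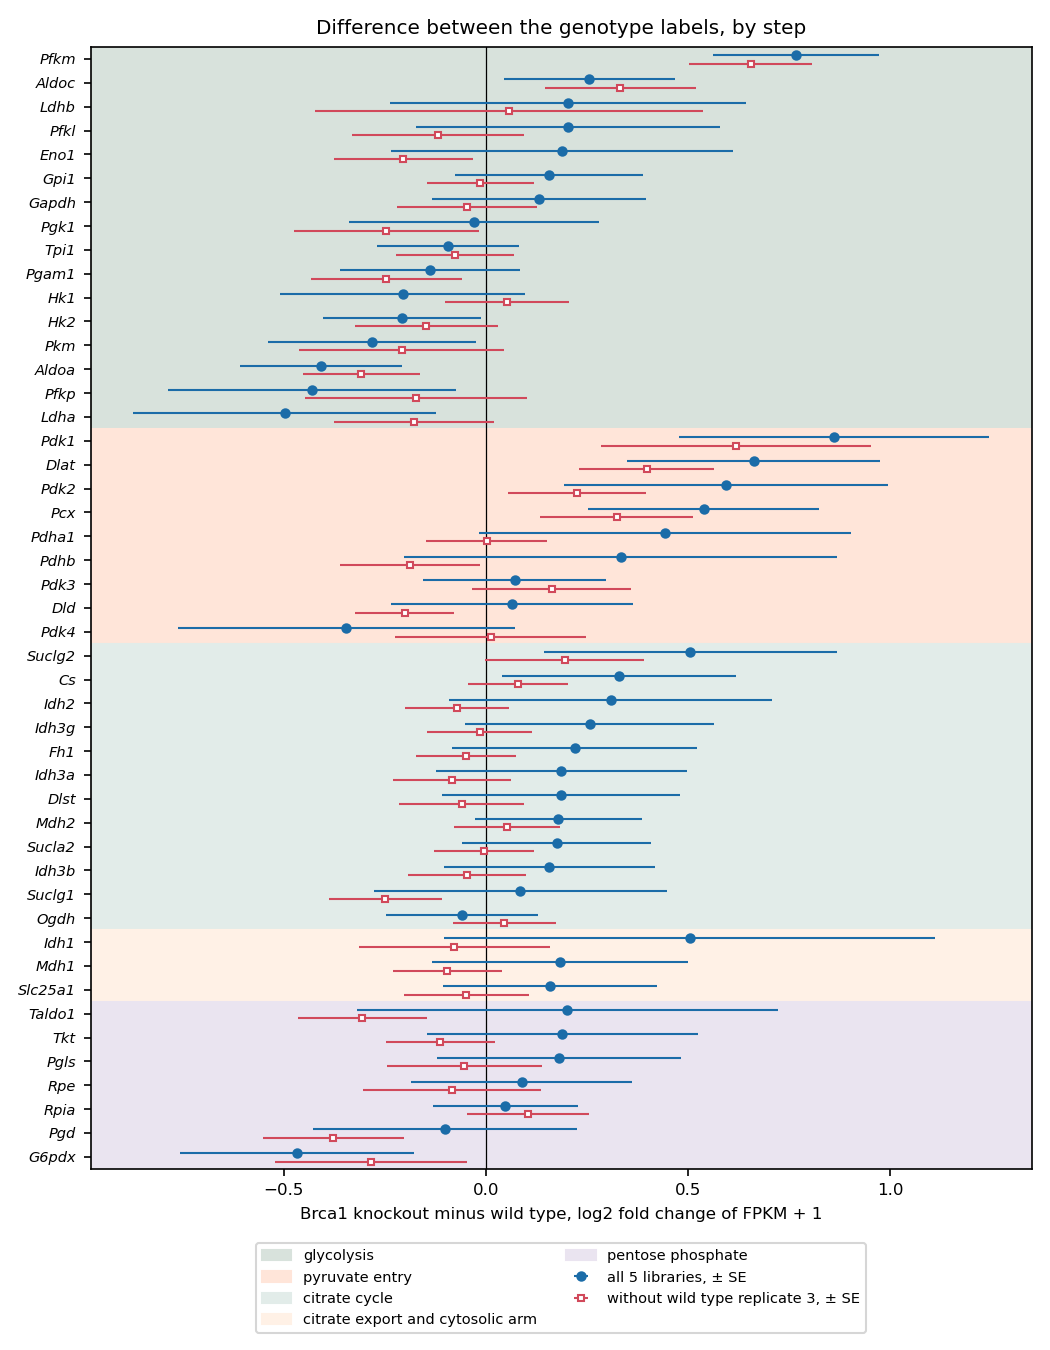
Log2 fold change of FPKM + 1 from limma, knockout minus wild type (horizontal axis), of the 47 genes (rows, by step) with all 5 libraries (filled circles) and without wild type replicate 3 (open squares), and bars for ± SE. *Pdk1* (0.86) and *Pfkm* (0.77) had the largest values, and most citrate cycle points moved to near 0 without replicate 3.

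Genes of the same routes that are outside the 47 were read from a fixed list of 53, of which 36 were tested, and 0 of them passed the adjusted threshold of limma between the labels (1 at an unadjusted p under 0.05). Their median difference in replicate 3 was -0.46, and replicate 3 was the lowest library for 22 of the 36, against 51.8% of all tested genes. *Slc2a1*, the main glucose transporter of the list, was at 117, 154 and 299 FPKM in the wild type and at 121 and 138 FPKM in the knockout libraries. *Mpc1*, a subunit of the carrier that brings pyruvate into mitochondria, measured 25.3 FPKM in replicate 3, with 48.9 to 50.6 FPKM in the rest. The 4 subunits of succinate dehydrogenase (*Sdha*, *Sdhb*, *Sdhc*, *Sdhd*) had replicate 3 differences of -0.71 to -0.59. *Acly*, which splits exported citrate into acetyl-CoA, measured 56.5 FPKM in the same library, with 158 to 189.9 FPKM in the rest. *H6pd*, a form of glucose-6-phosphate dehydrogenase in the endoplasmic reticulum, reached 9.72 FPKM there, with 0.384 to 3.15 FPKM in the rest. *Pklr* and *Tktl2* are listed at 0 in all 5 libraries.

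Of the 11 genes that lead from citrate to fatty acids, 9 lay below the all-gene median in replicate 3 (50.0% of all tested genes by construction), and the median difference was -1.26. *Fasn*, fatty acid synthase, measured 63.4 FPKM there, with 251 to 349 FPKM in the rest, whereas *Scd1*, which desaturates fatty acids, was at 750.3 FPKM against 239.5 to 566 FPKM. Limma called 0 of these 11 genes between the labels, with 1 at an unadjusted p under 0.05. *Acly* and *Me1* are in this list and in the 53. Among 17 targets of hypoxia-inducible factors outside the 47 genes, 15 were tested, and their median difference in replicate 3 was -0.05. Of the 15, 12 lay above the all-gene median, against 50.0% of all tested genes by construction. Replicate 3 was the highest library for 4 of them and the lowest for 4, against 18.5% and 51.8% of all tested genes. Limma called 0 of the 15, and 0 reached an unadjusted p under 0.05. *Slc2a1*, *Pfkfb3* and *Pfkfb4* are in this list and in the 53.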

How the data were processed

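Bulk RNA-seq of sorted mouse mammary luminal cells was used, with 3 libraries labelled wild type and 2 labelled *Brca1* knockout. The authors quantified expression with Cufflinks and deposited FPKM values, 1 column per library, without counts. The submitters' processing notes name Trimmomatic 0.35, TopHat2 2.0.13, Cufflinks 2.2.1 and mm10. The paper names a later TopHat version, and the gene annotation is not given in the sources used here. Of 24346 rows, 27 with a date for a gene name were left out, and 0 columns belonged to other series.

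Values were put on the log2 scale after adding 1 FPKM, which understates the changes of scarce genes. For 11481 genes averaging 1 FPKM or more, the labels were compared by a trended limma fit (limma 3.58.1, R 4.3.3), tested on simulated data, with Benjamini-Hochberg adjustment at 0.05. Isozyme shares were tested by exact permutation over samples. Other values were computed with Python 3.11.15, numpy 2.4.6 and pandas 2.3.3, and drawn with matplotlib 3.10.9. A library was taken to stand apart when its gap to the nearest value exceeded 0.71 of the range (Dixon). The members and all lists were chosen with earlier results of these data known.

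Values in every library are given for the highest and lowest gene of each step, all isozymes, the 3 citrate export genes, the 5 largest label differences and the 5 highest and 5 lowest genes in replicate 3. Depth was estimated from 3274 genes with a single transcript in GENCODE M21. Only 54.8% to 62.1% of low values lay near whole multiples, so FPKM were not turned into counts, and the fragment numbers are approximate and bear on counting error only. Gene positions are from GENCODE M21 and promoters from RefSeq, both on GRCm38, which is mm10. Alternatives were a pseudocount of 0.1, median-of-ratios and quantile scaling, no filter or a filter at 5 FPKM, limma without a trend or with robust settings, and each replicate left out. Scaled values of replicate 3, and counts and medians without it, were added after seeing the data.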

Additional observations from a re-analysis of the deposited data

Results flagged for a closer look

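A library lay far from the other 4 for 15 of the 47 genes, with a gap to its nearest neighbour above 0.71 of the whole range on the log2(FPKM + 1) scale. In all 15 it was wild type replicate 3 and its value was the lowest. Chance gives such a gap in about 5% of groups of this size, and it was found for 13.0% of all tested genes, with replicate 3 as the low library for 7.39%. The shares over all tested genes were not matched for level. In glycolysis the values in replicate 3 were 75.7 FPKM for *Gpi1* and 102 FPKM for *Eno1*. At pyruvate entry they were 55.3 FPKM for *Pdha1*, 32.5 FPKM for *Pdhb* and 30.6 FPKM for *Dld*. In the citrate cycle they were 51.0 FPKM for *Cs*, 32.8 FPKM for *Idh2*, 13.2 FPKM for *Idh3a*, 49.0 FPKM for *Idh3g*, 15.5 FPKM for *Sucla2*, 23.8 FPKM for *Fh1* and 117 FPKM for *Mdh2*. In the cytosolic arm they were 1.76 FPKM for *Idh1* and 46.9 FPKM for *Mdh1*, and in the pentose phosphate pathway 99.2 FPKM for *Tkt*. The median of pyruvate entry was likewise set apart in replicate 3, at 4.98 on the log2 scale against 5.55 to 5.78. The share of *Pfkp* among phosphofructokinase transcripts was set apart there in the other direction, at 33.6% against 11.5% to 14.9%.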

How the results depend on the processing

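No gene was called between the labels with all 5 libraries or under another pseudocount, scaling, filter or limma setting. Leaving out 1 library gave between 0 and 14 called genes over the whole table, with 2 without wild type replicate 1, 14 without knockout replicate 4 and 4 without knockout replicate 5, and 0 of the 47 genes in each case. Leaving out knockout replicate 4 or 5 leaves 1 knockout library, which limma then assumes to vary like the wild type libraries. Among the isozyme shares (knockout minus wild type, percentage points), that of *Hk2* went from -0.27 to 1.74 without wild type replicate 1 and 2.52 without knockout replicate 4 (leave-one-out range -3.06 to 2.52). That of *Pfkl* went from 2.26 to -4.77 without wild type replicate 3 and -0.173 without knockout replicate 5 (range -4.77 to 5.84). That of *Ldhb* went from 4.22 to -0.0269 without knockout replicate 4 (range -0.0269 to 8.46), and that of *Idh2* from -1.52 to 0.216 without wild type replicate 3 (range -3.43 to 0.216). The exact test of these shares cannot reach 0.05 with so few libraries, and the cause of the reversals was not tested. Over the same leave-outs the median log2 fold change ranged from 0.16 to 0.68 for pyruvate entry, -0.03 to 0.33 for the citrate cycle, -0.08 to 0.36 for citrate export, -0.11 to 0.20 for the pentose phosphate pathway and -0.13 to 0.07 for glycolysis, and the 5 largest single-gene differences stayed positive. The other 197 recomputed values of these summaries kept their direction or stayed within the spread between libraries. No paired analysis was possible because the labels number the wild type libraries 1 to 3 and the knockout libraries 4 and 5, and share no number. The fewest fragments estimated behind a value of the 47 genes were 48.8, and *Pdk3* was the lowest gene by this measure.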
